A study of Mus musculus with 60 samples.

Results

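Of the 18088 genes measured in the mouse prefrontal cortex, 32 are genes of oligodendrocytes and of the myelin these cells make. They were chosen by name, for their known roles in these cells. No measured value entered the choice rule, but earlier results of these data were known when the list was made. All 32 were found in the deposited table and all passed the filter on low values. They fall into 7 roles, which are 5 transcription factors of the lineage, 5 genes of newly formed or differentiating oligodendrocytes, 4 structural proteins of compact myelin, 9 other proteins of the myelin membrane and sheath, 3 enzymes of myelin lipid and acetate metabolism, 2 gap junction proteins and 4 other genes.

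RNA was sequenced from 60 C57BL/6J mice, 30 of them wild type (WT) and 30 carrying 1 copy of the N2373K allele of Chd8 (Chd8+/N2373K, here Het). Chd8 encodes a chromatin remodeler of the CHD family, a protein associated with autism when 1 copy of its gene is lost. Mice of each genotype had received vehicle, lithium (used to stabilize mood) or fluoxetine (an antidepressant that blocks serotonin uptake), and every treatment came with the maternal milk between postnatal days 3 and 24. Males and females were dissected at postnatal day 25, which made 12 groups of 5 libraries. Values are normalized reads, in which each library's whole reads were divided by its size factor. Differences are on the log2(value + 1) scale with their standard error, and a gene was called where limma gave a Benjamini-Hochberg adjusted p under 0.05 over all 17807 genes tested in that comparison (two-sided).

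Oligodendrocytes arise from precursor cells that divide throughout the postnatal brain, stop dividing, pass through a short premyelinating stage and then wrap axons in a compacted membrane. The transcription factors OLIG2, OLIG1 and SOX10 act through the whole lineage, whereas MYRF switches on the myelin genes at the last step. In the mouse cortex myelin is laid down over the weeks around weaning, first in the deep layers and the white matter beneath them and later toward the surface. In bulk tissue, fewer oligodendrocytes and less RNA per oligodendrocyte cannot be told apart.

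The sequence just upstream of 2 of the myelin genes is shown because Mobp and Mog were among the genes that differed with fluoxetine and because their letters differ in kind. Mobp (chromosome 9, 120149707 to 120181484 on GRCm38) encodes a basic protein of compact myelin, and Mog (chromosome 17, 37010743 to 37023398 on GRCm38) encodes a glycoprotein of the outermost myelin layer. Each run covers the bases from 250 to 51 before the annotated start in RefSeq, read 5′ to 3′ on the gene's own strand of GRCm38.p6, and is 200 bases long. The capitals mark matches, on either strand, to the SOX-like letters ACAAAG and ACAATG, the E-box CAGCTG or the MYRF-like letters CTGGNAC.
Mobp, chr9:120149492-120149691, plus strand: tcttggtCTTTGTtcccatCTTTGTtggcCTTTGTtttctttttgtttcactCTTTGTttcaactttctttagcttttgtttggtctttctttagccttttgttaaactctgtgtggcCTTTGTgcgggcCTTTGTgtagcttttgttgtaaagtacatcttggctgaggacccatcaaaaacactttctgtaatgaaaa
Mog, chr17:37023449-37023648, minus strand: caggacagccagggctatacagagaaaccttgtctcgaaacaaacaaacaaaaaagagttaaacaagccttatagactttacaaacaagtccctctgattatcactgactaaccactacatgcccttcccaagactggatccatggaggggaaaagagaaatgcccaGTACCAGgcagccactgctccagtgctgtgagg
In Mobp the 6 matches were all CTTTGT, which is ACAAAG read on the other strand, and in Mog the 1 match was GTACCAG, which is CTGGNAC read on the other strand. Of the 32 genes, 25 had a promoter window of 300 bases (250 before to 50 after the start) in the RefSeq table. A gene was counted if any of its windows matched. The 25 genes had 35 windows, and all 27025 genes had 32851, so the windows per gene were not equal. Among these 25 genes CTGGNAC was present in 12 (48%), against 21.4% of all 27025 genes with a window. ACAAAG was present in 7 of the 25 (28%) against 21% of all genes, ACAATG in 7 (28%) against 14.3%, and CAGCTG in 4 (16%) against 18.3%. ACAAAG and ACAATG differ in the fifth letter, so no site matches both, and a match describes the sequence and not a bound site.

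The median library held 28.32 M reads, the smallest 24.05 M and the largest 31.65 M. Chd8 stood at 2951 to 3285 normalized reads in the 30 WT libraries (median 3090) and at 2421 to 3072 in the 30 Het libraries (median 2670), and 1 Het library lay above the lowest WT library. The libraries differed in the markers of neighboring tissue that the dissection could include, above all of the olfactory bulb, and each count of members was therefore also run without the 16 libraries highest in those markers and without the 10 highest in striatal markers. Neuron markers were high throughout (Snap25 at 48960 to 80940). Treatment came with the maternal milk, so pups nursed by the same dam shared it, and the labels do not tie pups to litters. Mice of a group, and the males and females averaged over both sexes, may thus be littermates. The fits treat them as independent, so the p-values reflect the spread among these samples alone and not that among treated dams.

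Per kilobase of exon the members ranged widely, and 3 genes of compact myelin stood highest among them. Mbp, the main basic protein of compact myelin, had the highest level, with a median of 5653 normalized reads per kb over the 60 libraries. Mobp followed at 1927 and Mal, a lipid-raft protein of compact myelin, at 1895 per kb. Cnp, an enzyme of the cytoplasmic myelin channels, had 1679 per kb and Cldn11, the tight junction protein that seals the sheath, 1428 per kb. Of the transcription factors Olig1 had the highest level (872 per kb), above Sox10 (231), Olig2 (191), Myrf (83.2) and the homeobox gene Nkx6-2 (44.4). The lowest was Aspa, which cleaves N-acetylaspartate to release acetate, at 37.4 per kb. Ranges over libraries overlapped between neighbors in this order. The loci of Nkx6-2, Pllp, Cnp and Plekhh1 overlap a gene on the opposite strand and those of Mobp and Gsn a gene on the same strand, so their levels are uncertain as far as reads were shared.

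**Figure D1:**
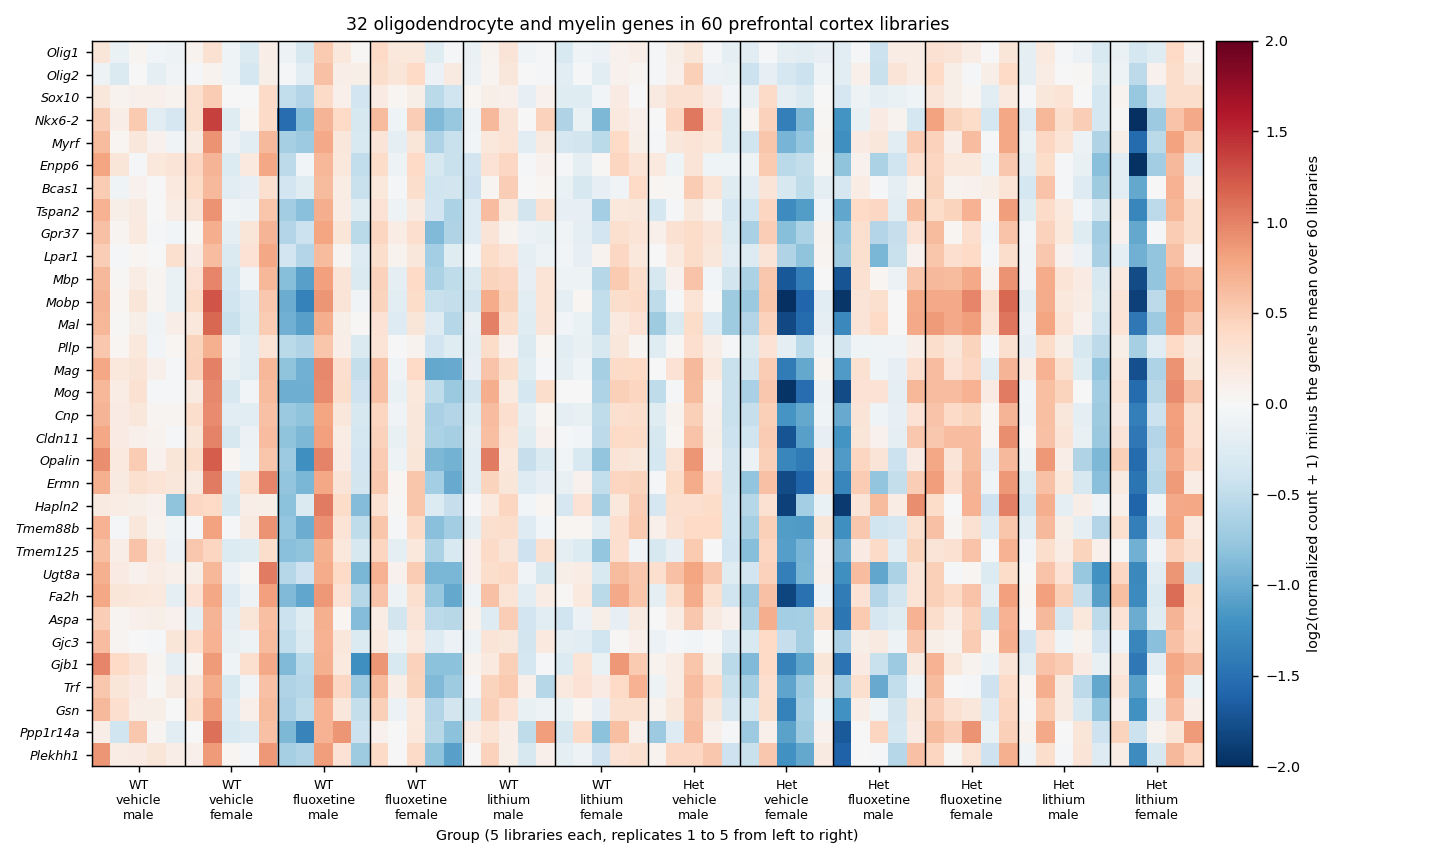
Level of each of the 32 genes (one line per gene, grouped by role) in each of the 60 libraries (one column per library, grouped by genotype, treatment and sex), as the log2 difference from that gene's mean over all libraries. Whole columns share a color, as in Het lithium female 2, which was low for nearly all genes, while Olig1 and Olig2 vary least.

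The members varied far more between mice of 1 group than most genes did. The SD of the log2 values within groups was 0.54 for the median member, from 0.21 to 0.70, against 0.17 for the median of all genes tested, and all 32 members lay above that median. The variance within groups made up 80.0% of the total for the median member (67.3% to 88.2%) and 71.8% for the median gene. The highest library exceeded the lowest by 1.95 times for Olig1 and by 10.8 times for Mobp, and the widest ratio, 11.6 times, was that of Nkx6-2, whose levels were low. Among the newly formed and differentiation genes this ratio ran from 3.28 to 6.88, and among the 9 membrane and sheath proteins from 3.56 to 7.99. It ran from 4.54 to 7.75 for the lipid and acetate enzymes, and from 4.12 to 5.59 for the gap junction proteins.

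The same libraries were high or low for most of the members. Het lithium female 2 was the lowest of the 60 libraries for 17 members and among the 6 lowest for 31. Het vehicle female 3 was the lowest for 9 members and among the 6 lowest for 27, and Het fluoxetine male 1 was the lowest for 5 and among the 6 lowest for 27. WT vehicle female 2 was the highest for 15 members, and WT fluoxetine male 3 was among the 6 highest for 29. Each of these libraries came from a different group, and each group also held libraries near the middle. Low libraries did share groups, however. Het vehicle female 4, from the group of Het vehicle female 3, was among the 6 lowest for 24 members. WT fluoxetine males 1 and 2 were among the 6 lowest for 16 members each. All 496 pairs of members correlated positively over the 60 libraries, with a median Pearson r of 0.83 (0.49 to 0.98), and with group means removed the median was 0.84. This is a description over libraries that share depth and dissection. Cnp had the highest median r with the other members (0.91), and Olig2 (0.59) and Olig1 (0.70) the lowest.

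Levels of Mbp moved with those of markers of cortical depth, neighboring tissue, vessels and the meninges. The 60 libraries were compared by the mean log2 value of 14 marker lists, with permutation p-values adjusted over the 14 relations. Mbp rose with the 9 markers of deep cortical layers (r = 0.81, rho = 0.81, adjusted p = 3.5e-05 and 2.8e-05) and fell with the 8 markers of upper layers (r = −0.80, rho = −0.77, adjusted p = 3.5e-05 and 2.8e-05). These p-values rest on a permutation p of 1e-05, the smallest that 100000 resamples can give. Without the 2 libraries farthest from the median of the marker list r was 0.76 and −0.745, and within groups (deviations from group means) it was 0.82 and −0.84. It fell with the leptomeningeal markers too (r = −0.695, rho = −0.61, adjusted p = 3.5e-05 and 2.8e-05, and r = −0.63 without 2 libraries). It rose with the 10 striatal markers (r = 0.51, rho = 0.70, adjusted p = 8.4e-05 and 2.8e-05, and r = 0.465 without 2 libraries) and the 11 olfactory bulb markers (r = 0.275, rho = 0.33, adjusted p = 0.0457 and 0.0174, and r = 0.36 without 2 libraries). It fell with the 10 endothelial and mural markers (r = −0.48, rho = −0.40, adjusted p = 0.000187 and 0.00394, and r = −0.44 without 2 libraries) and the 10 microglia markers (r = −0.34, rho = −0.34, adjusted p = 0.0133 and 0.0174, and r = −0.45 without 2 libraries). With the 12 markers of oligodendrocyte precursors Mbp had an r of 0.19 (permutation p = 0.142, adjusted p = 0.166) and a rho of 0.19 (adjusted p = 0.195), and 0.12 without 2 libraries. With the 8 markers of committed precursors r was 0.31 and rho 0.27 (permutation, adjusted p = 0.0238 and 0.0563), and r was 0.195 without 2 libraries. With the 10 astrocyte markers r was −0.36 and rho −0.22 (permutation, adjusted p = 0.0096 and 0.127), and r was −0.198 without 2 libraries. Pdgfra, the receptor that defines precursors, ran from 1733 to 2207 over the 60 libraries, and the proteoglycan gene Cspg4 from 397 to 772, both narrower ranges than that of Mbp. The part of the dissection and of these other cells in the levels of the members was not tested.

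**Figure D2:**
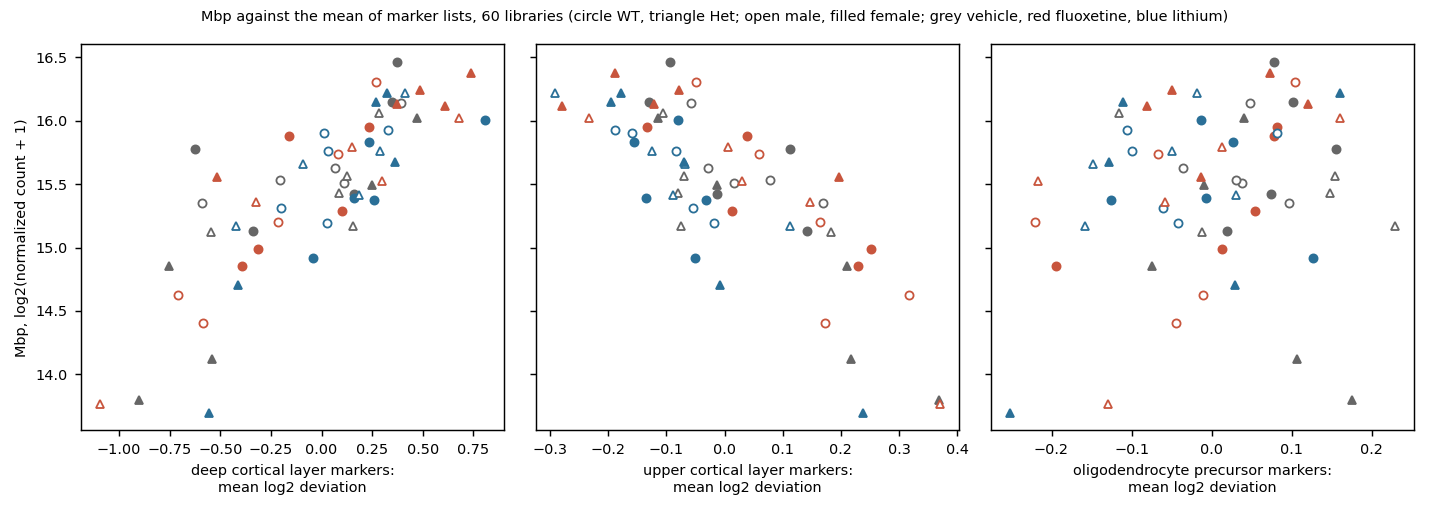
Mbp (log2 of normalized reads + 1, vertical axis) against the mean log2 level of the deep cortical layer markers, the upper cortical layer markers and the oligodendrocyte precursor markers (horizontal axes), 1 point per library, 60 libraries, colored by treatment. Mbp rises with the deep layer list (r = 0.81), falls with the upper layer list (r = −0.80) and has no clear slope with the precursor list (r = 0.19).

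In vehicle-treated mice the question was what the Chd8 allele alone did to these genes. In females all 32 members had a lower mean in Het than in WT mice, with a median difference of −0.74, from −0.20 for Olig1 to −1.13 for Mobp, but limma called none of them (smallest adjusted p = 0.598). In males the median was −0.10, with 8 members higher and 24 lower, and none was called. Of all genes tested, 0.0225% were called in females and 0.0168% in males, so calls were rare throughout these comparisons. At an unadjusted p under 0.05 there were 21 members in females, against 6.45% of all genes, and 0 in males, against 8.22%. edgeR and DESeq2 also called 0 members in either sex. As the average of both sexes the median was −0.39, with 0 called by any of the 3 tools, 13 at an unadjusted p under 0.05 (7.79% of all genes) and 0.0562% of all genes called. Over all genes the median difference lay between −0.00528 and 0.00852 in each of the 29 comparisons made.

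Of the 5 transcription factors in the vehicle females, Olig1 (−0.20) and Olig2 (−0.23) had the smallest differences and Myrf (−0.58) and Nkx6-2 (−0.72) the largest, none of them called. Olig2, which specifies the lineage, was at 482, 515, 459, 382 and 533 in WT vehicle females (replicates 1 to 5, as in every such list) and at 364, 435, 389, 363 and 461 in Het vehicle females. In the males it was at 457, 398, 494, 427 and 466 in WT and 476, 525, 680.2, 451 and 444 in Het mice. Its partner Olig1 was at 2024, 2385, 1814, 1583 and 2109 in WT and 1669, 1883, 1689, 1636 and 1711 in Het females. Het females were thus at the lower end of the WT range for both genes, within it for Olig1, and partly below it for Olig2. Olig1 in the males was at 2270.2, 1757, 1994, 1858 and 1791 in WT and 1883, 2078, 2267, 1899.6 and 1676 in Het mice. Sox10, which maintains oligodendrocyte identity (chromosome 15, 79154908 to 79165240 on GRCm38), was at 851, 974, 687, 681 and 895 in WT and 614, 892, 600.2, 562 and 690 in Het females, and at 797, 719, 735, 732 and 719 and 771, 847, 847, 769 and 657 in the males. Myrf was at 752, 1246, 614, 573 and 1045 in WT and 501, 977, 349, 387 and 688 in Het females. The Het females 3 and 4 had the lowest Myrf values of these 10 libraries. In the males Myrf was at 1026, 679.9, 779.5, 704 and 631 in WT and 649, 779, 803, 769 and 551 in Het mice. Nkx6-2 differed by −0.72 ± 0.39 in females and 0.17 ± 0.39 in males.

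The 5 genes of newly formed cells also had lower means in Het females, none called. Enpp6, a choline phosphodiesterase that marks cells just starting to myelinate, was at 562, 670.1, 346, 483 and 716 in WT and 391, 606, 289, 302 and 427 in Het females. In the males it was at 726, 497, 408, 486 and 501 and 479, 397, 500.1, 398 and 394. Tspan2, a tetraspanin of differentiating oligodendrocytes (chromosome 3, 102734529 to 102801513 on GRCm38), was at 3808, 5983, 3044, 2993 and 4713 in WT and 2433, 4313, 1336, 1467 and 3065 in Het females, a difference of −0.79 ± 0.30 (limma, adjusted p = 0.642). Below every WT female lay 2 of the 5 Het females for Enpp6 and 3 for Tspan2. The other 3 genes of this role, Bcas1, Gpr37 and Lpar1, differed by −0.39 to −0.62 in females.

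Of the 4 compact myelin genes Mobp had the widest gap between the female groups and Pllp the narrowest. Mbp was at 56111, 90521, 35903, 43829 and 72474 in WT and 29607, 66685, 14201, 17811 and 46175 in Het females. Mobp was at 15868, 29296, 9279.8, 10268 and 17742 in WT and 7353, 18018, 2715, 4095 and 10627 in Het females, a difference of −1.13 ± 0.42 (limma, adjusted p = 0.642). Mal (chromosome 2, 127633226 to 127656695 on GRCm38) was at 5726, 10962, 3611, 4080.5 and 6977 and 3269.8, 6779, 1407, 1685 and 4361. In each of the 3 genes Het females 1, 3 and 4 lay below every WT female, whereas Het female 2 stood near the upper WT values, so the groups overlapped. In the males Mbp was at 72324, 46511, 50732, 47434 and 41698 in WT and 36886, 48505, 68255, 44219 and 35637 in Het mice. Mobp was at 19599, 12587, 14528, 12734 and 11171 and 8660.1, 11942, 14835, 12178 and 7526, and Mal at 7765, 5000.4, 5356, 4686 and 5388 and 3015, 4009, 6336, 4137 and 3000.2. The male groups overlapped widely for Mbp, and for Mal 4 of 5 Het males lay below every WT male (−0.49 ± 0.37, limma, adjusted p = 0.739). Pllp, a further membrane protein of myelin, differed by −0.39 in females and −0.10 in males.

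Among the sheath proteins much the same libraries were high or low, though not in exactly the same order. Mag, an adhesion protein of the innermost myelin layer, was at 3608, 5277, 2355, 2271 and 4162 in WT and 2038, 3731, 996, 1291 and 2718 in Het females, and at 4451, 3024, 3123, 2809 and 2558 and 2641, 3199, 4102, 2987 and 1917 in the males. Mog was at 1318, 2287, 932, 1128 and 1817 in WT and 742, 1690.4, 301, 408 and 1084 in Het females, and at 1843, 1299.6, 1449, 1146 and 1135 and 823, 1137, 1809, 1221 and 859.7 in the males. Cnp was at 7517, 11380.2, 5081, 5052 and 8834 in WT and 4279, 8150.3, 2600.1, 2891 and 5555 in Het females, and at 9455, 6609, 6879, 6096 and 6120.5 and 4983, 6190.1, 8169, 6301 and 4322 in the males. WT female 2 was the highest library of the 20 for all 3 genes, and Het female 3 the lowest. Opalin, a membrane protein of mature oligodendrocytes, was at 335, 606, 268, 243 and 383 and 240.1, 366, 106, 97.9 and 293 in the females, and at 497, 298, 374, 278 and 309 and 204, 317, 482, 278 and 203 in the males. Ermn, a cytoskeletal protein of the sheath, was at 843, 1525, 617, 929.9 and 1459.9 in WT and 428, 1116, 213, 245 and 893 in Het females and had the smallest p of all members there (−1.12 ± 0.38, limma, unadjusted p = 0.00514, adjusted p = 0.598). The remaining sheath genes Cldn11, Hapln2, Tmem88b and Tmem125 differed by −0.64 to −0.85 in females.

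The lipid enzymes Ugt8a, which makes galactosylceramide, and Fa2h, which hydroxylates the fatty acids of myelin lipids, differed by −0.76 and −1.01 in females and by 0.16 and −0.09 in males, and Aspa by −0.41 and 0.03. The gap junction genes Gjc3 and Gjb1 differed by −0.49 and −0.90 in females. Gsn, an actin-severing protein, was at 2461, 3493, 1629, 2069 and 3020 in WT and 1511, 2468, 761, 1224 and 1824 in Het females (−0.76 ± 0.28, limma, adjusted p = 0.641), and Trf, the iron carrier transferrin, differed by −0.63. Ppp1r14a and Plekhh1 differed by −0.69 and −0.77. The interaction of genotype and sex under vehicle had a median of −0.58 over the members, with 0 called by limma, edgeR or DESeq2 and 1 at an unadjusted p under 0.05 (Olig2, −0.42 ± 0.19, adjusted p = 0.709), where 0% and 6.78% of all genes were, so the difference between the sexes was not established. In the Het against WT females the deep layer list had 1 of 9 genes above 0 and a median of −0.23, the endothelial and mural list 10 of 10 above 0, and no gene of any marker list was called. The part of these cells in the lower means was not tested.

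**Figure D3:**
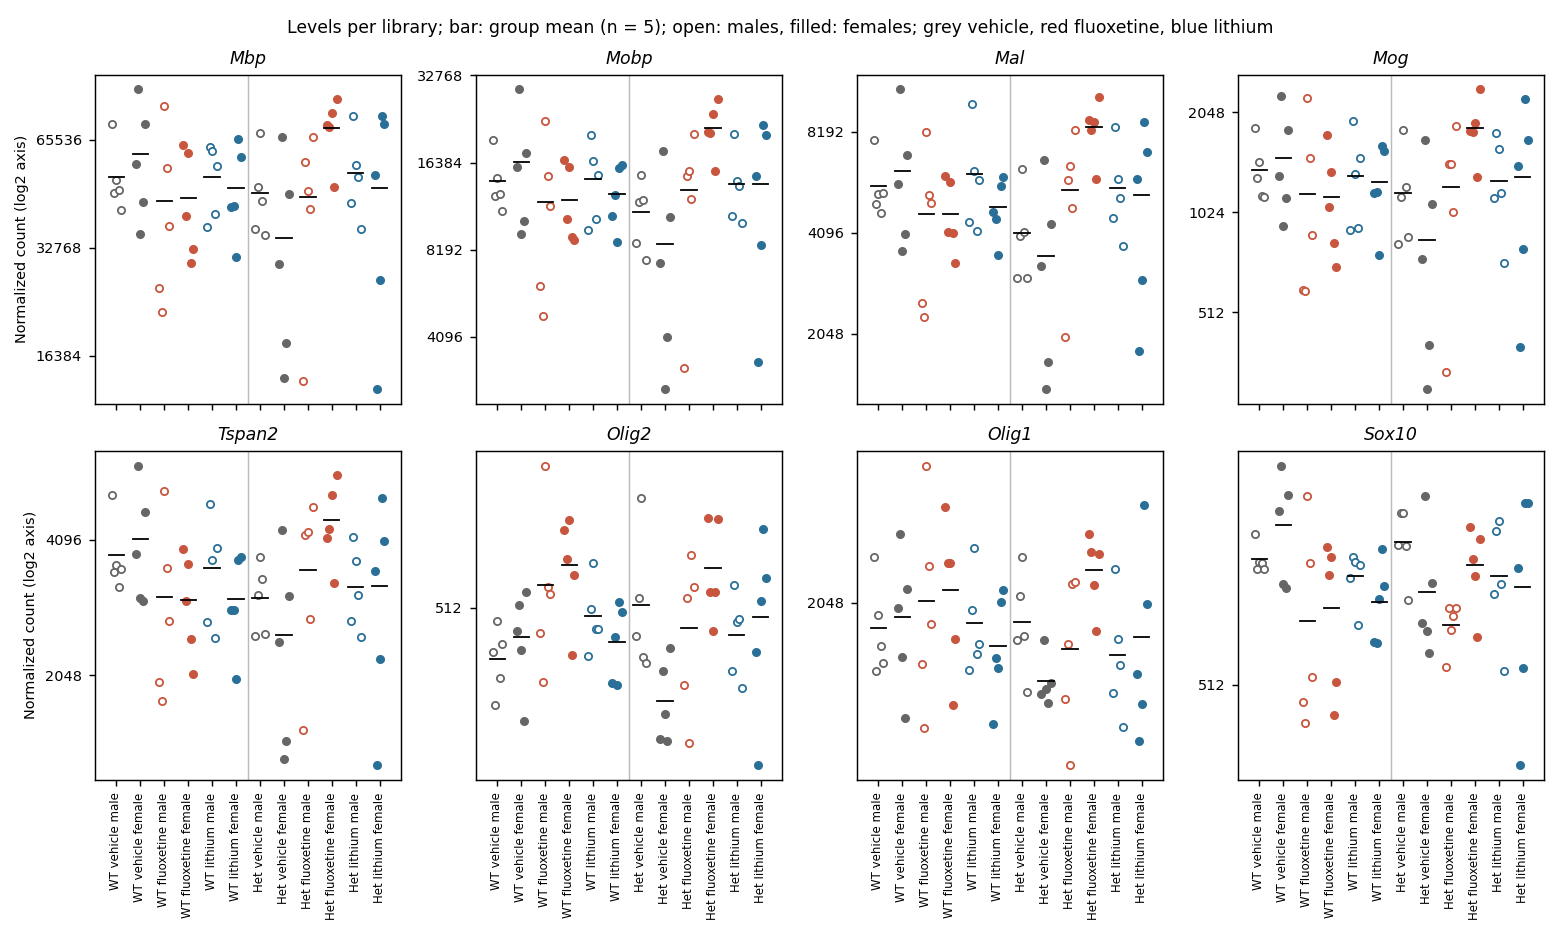
Normalized reads (log2 axis) of 8 members in the 12 groups, 1 point per library and a bar at each group mean, in grey for vehicle, red for fluoxetine and blue for lithium, open for males and filled for females. Het vehicle females spread widely for Mbp, Mobp, Mal and Mog, and Het fluoxetine females lie together at the upper end, while Olig1, Olig2 and Sox10 span a narrower range.

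The next question was what fluoxetine did in WT mice. Its comparisons and those of lithium share the vehicle libraries of the same genotype. Most members had lower means with fluoxetine, with a median difference of −0.39 in males and −0.42 in females, but none was called in either sex by limma, edgeR or DESeq2, where 1.34% and 2.5% of all genes were called. At an unadjusted p under 0.05 there were 0 members in males and 2 in females, against 11.1% and 17% of all genes. As the average of both sexes Sox10 was called lower by 0.34 (−0.34 ± 0.11, limma, adjusted p = 0.0494), 1 of 32 members where 5.06% of all genes were called lower and 8.2% in either direction. At an unadjusted p under 0.05 there were 8 members, against 23.4% of all genes. edgeR and DESeq2 did not call it, and it was lost in 20 of 34 alternatives, 13 of them the leaving out of 1 of the 20 libraries. In the males Sox10 was at 486, 458, 891, 732 and 524 with fluoxetine, against the 719 to 797 of the vehicle males given above, and in the females at 768, 707, 744, 469 and 517. In 9 of the 10 fluoxetine mice it lay below the vehicle mean, and the groups overlapped.

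Of the transcription factors Olig2 and Olig1 had higher means. Olig2 was at 479.5, 423, 739, 539 and 531 in fluoxetine WT males and 626, 581, 642, 453 and 557 in fluoxetine WT females (0.26 ± 0.09 over both sexes, limma, adjusted p = 0.0725). In 8 of 10 fluoxetine mice it lay above the vehicle mean. Olig1 was at 1786, 1547, 2780.5, 2223 and 1952 in males and 2534, 2237, 2237, 1629.7 and 1889.7 in females, and Myrf at 419, 400, 1127, 779 and 541 and 792, 584, 789, 432 and 486. WT fluoxetine male 3 was the highest of the 5 males for each of these 4 factors.

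Among the effector genes the WT fluoxetine males split widely. Mbp was at 25309, 21719.9, 81190.1, 54766 and 37674 in males and 63464, 40092, 60199, 29668 and 32455 in females, and Mobp at 6154, 4834, 22733, 14699 and 11637 and 16701, 10497, 15833, 9047 and 8833. Mal was at 2529, 2308, 8189, 5315 and 5027 in males and 6039, 4112, 5797, 4099.8 and 3329.5 in females. Enpp6 was at 293, 405, 668, 486 and 299.5 and 542, 392, 554, 337 and 309. Males 1 and 2 were the lowest for Mbp, Mobp and Mal and male 3 the highest, a spread that covers that of the vehicle males. Mag was at 1505, 1341, 5088, 3319 and 1876 in males and 3926, 2485, 3465, 1286 and 1301 in females, and Mog at 595, 592, 2260, 1489 and 874 and 1754, 1065, 1349.8, 826 and 699. Cnp was at 3516, 3361, 10176, 6913 and 4693 and 7884, 5585, 6863, 3738 and 3922, and Opalin at 158, 111, 521, 292 and 201 and 374, 242, 311, 140.4 and 135. Opalin had the next smallest p after Sox10 and Olig2 over both sexes (−0.64 ± 0.28, limma, adjusted p = 0.147), followed by Plekhh1 (−0.54 ± 0.24, adjusted p = 0.148). In the single sexes Gjb1, a connexin, differed by −0.64 ± 0.36 in males and Tmem125 by −0.48 ± 0.28, neither called. Of the 38 other oligodendrocyte genes 4 were called lower over both sexes, namely the protease gene Adamts4 (−0.78), the neuregulin receptor Erbb3 (−0.65), the fatty acid elongase Elovl7 (−0.62) and the transcription factor Sox8 (−0.52), and 0 higher.

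In Het females the myelin genes were higher with fluoxetine than with vehicle. Of the 32 members 12 (37.5%) were called higher and 0 lower, where 7.08% of all genes were called higher and 15.1% in either direction. All 32 had a higher mean, with a median difference of 0.72, and 24 had an unadjusted p under 0.05, against 29.9% of all genes. The called genes were 3 of the 4 compact myelin genes (Mal, Mobp, Mbp), 5 of the 9 sheath genes (Mog, Cldn11, Ermn, Tmem125, Cnp), 2 of the 5 transcription factors (Olig2, Olig1), 1 of the 5 genes of newly formed cells (Tspan2) and the lipid enzyme Fa2h. The comparison group is the vehicle group that held the low libraries described above.

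Mal had the smallest adjusted p. It was at 8873, 8293, 8762, 5928 and 10387 with fluoxetine, where the vehicle females given above ran from 1407 to 6779 (8449 ± 1614 against 3500.5 ± 2192, mean ± SD, n = 5), a difference of 1.49 ± 0.37 (limma, adjusted p = 0.0044). The lowest fluoxetine library lay below the highest vehicle library, Het vehicle female 2, and above the other 4. Mobp was at 20827, 20704, 24076, 15289 and 27186 (1.62 ± 0.42, limma, adjusted p = 0.00689). Mbp was at 71908, 71164, 77766, 48314 and 85127 (1.23 ± 0.38, adjusted p = 0.0225). In all 3 genes fluoxetine female 4 was the lowest of its group and the only one below vehicle female 2. Pllp had a difference of 0.43 and was not called.

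Of the transcription factors Olig2 was at 645, 533, 482, 533 and 644, above all 5 vehicle libraries (0.49 ± 0.13, limma, adjusted p = 0.00863). Olig1 was at 2385, 2295, 2128, 1921 and 2285, also above all of them (0.36 ± 0.13, adjusted p = 0.0496). These were the 2 members of the 32 whose groups did not overlap, where 6.86% of all genes had groups that did not. Myrf was at 919.6, 727, 1016, 647 and 1139 (0.69, not called), Sox10 at 814, 741, 704, 588 and 786 (0.12 ± 0.16, adjusted p = 0.638) and Nkx6-2 had a difference of 0.75. For Sox10, which is present through the whole lineage like Olig2, all 5 fluoxetine libraries lay within the range of the vehicle group.

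Among the sheath proteins Mog was at 1795, 1789, 1902, 1305 and 2399.8 (1.37 ± 0.40, limma, adjusted p = 0.0158) and Cldn11 at 3671, 3904, 3879, 2599 and 4827, against 1932, 3608, 762, 1199 and 2260.4 with vehicle (1.12 ± 0.34, adjusted p = 0.0216). Ermn was at 1325, 934, 1186, 699 and 1346 (1.19 ± 0.38, adjusted p = 0.0277). Cnp was at 8704, 7675, 7983, 6029 and 9433 (0.88 ± 0.31, adjusted p = 0.0460). For each of the 4 genes vehicle females 3 and 4 lay below every fluoxetine library. Mag was at 4003, 3194, 3492, 2258 and 4213 and Opalin at 447, 314, 406, 233 and 409, and neither was called (0.80 and 0.87), nor were Hapln2 (0.92), a link protein of the nodes of Ranvier, and Tmem88b (0.69). Tmem125 was called at 0.83 ± 0.28 (adjusted p = 0.0339).

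Tspan2 was at 4140.2, 4332, 5153, 3289.8 and 5694 (0.96 ± 0.30, limma, adjusted p = 0.0239), and Enpp6 at 569, 486, 487, 391 and 612 with a difference of 0.37 that was not called. Bcas1, Gpr37 and Lpar1 had differences of 0.40 to 0.62. Fa2h was called at 1.12 ± 0.39 (adjusted p = 0.0446), and Ugt8a and Aspa had 0.54 and 0.43. The gap junction genes Gjc3 and Gjb1 had 0.50 and 0.75, and Trf, Gsn and Plekhh1 had 0.51 to 0.66. Ppp1r14a, an inhibitor of myosin phosphatase, was the member just outside the threshold (0.94 ± 0.35, adjusted p = 0.0597), and Olig1 the one just inside it.

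**Figure D4:**
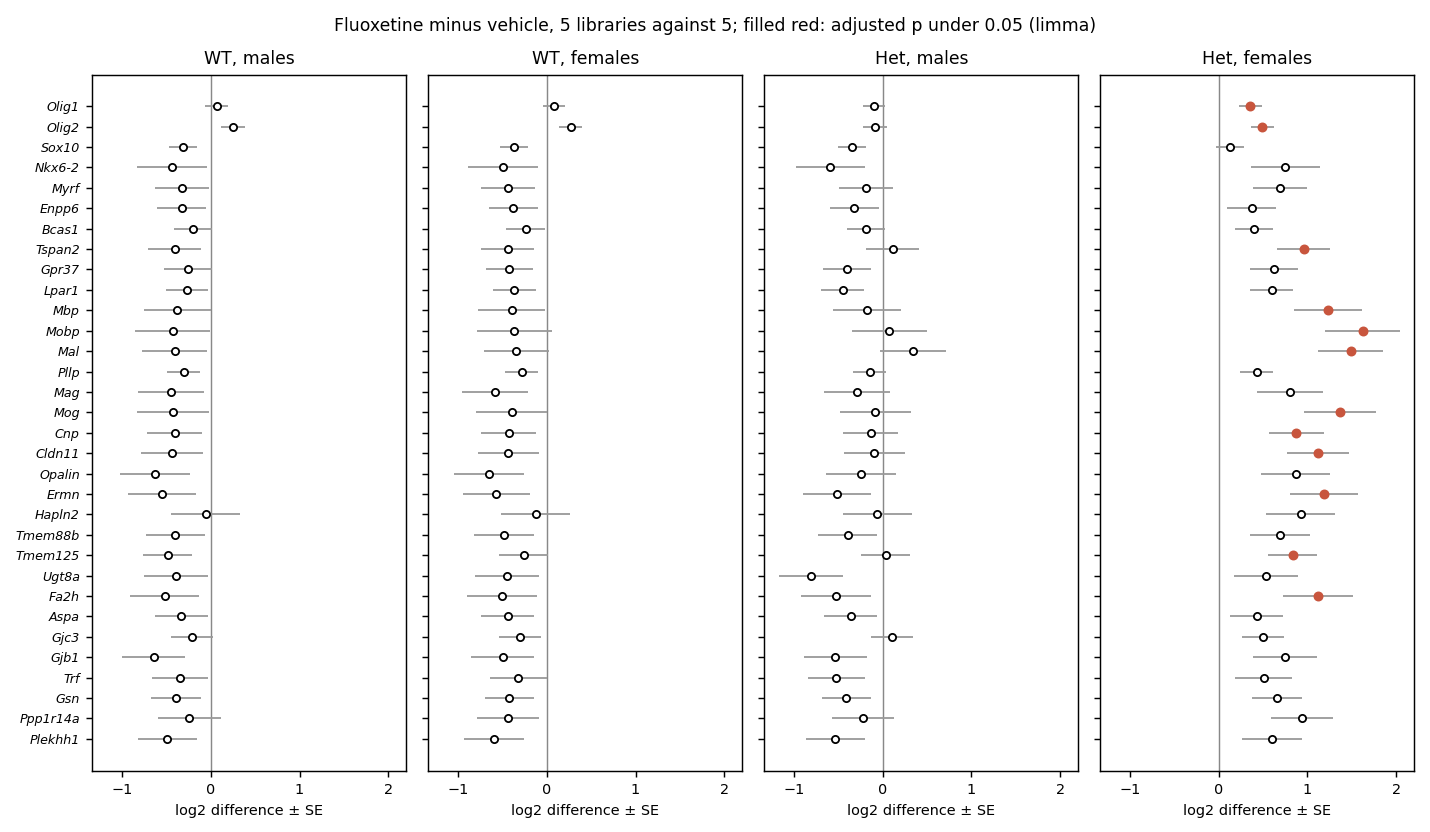
Fluoxetine minus vehicle difference (log2, horizontal axis, with its standard error) of each of the 32 members in both sexes of WT and Het mice, with called genes as filled red points. All 32 differences lie above 0 in Het females, where 12 are called, and most lie below 0 in the other groups, where none is called.

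The count of 12 in Het females depended on single libraries and on the tool. It was 2 without Het vehicle female 3 (Olig2 and Mal), 3 without Het vehicle female 4, 7 without Het vehicle female 1 and 19 without Het vehicle female 2. It was 6 without Het fluoxetine female 3 and 4 without Het fluoxetine female 5. edgeR called 6 and DESeq2 10, a fit of the 2 groups alone called 4, and a fit without the 10 libraries highest in striatal markers called 5. Mal was called in all 24 alternatives run for it, with differences from 0.77 to 1.99. Mobp was lost in 1 of them, without Het vehicle female 3 (1.28, adjusted p = 0.0547).

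Markers of cortical depth and of vessels differed between the same groups. The deep layer markers were higher in 9 of 9 genes, with 3 called (Ccn2 0.98, Crym 0.68, Bcl11b 0.78), and their summed level ran from 4500 to 10725 in the vehicle and from 7780 to 13816 in the fluoxetine females. Of the 8 upper layer markers Cux2 and Pou3f2 were called lower (−0.52 and −0.22). Of the 10 endothelial and mural markers 5 were called lower, with summed levels from 9972 to 15043 and from 8451 to 10997. Of the 7 leptomeningeal markers 4 were called lower, with sums from 17490 to 48402 and from 22289 to 27874. No marker was at 0 in every library. Neighboring tissue differed too. Het fluoxetine females 1, 2 and 3 and Het vehicle females 2 and 5 were among the 16 libraries highest in olfactory bulb markers. Het fluoxetine female 5 was the highest of all in striatal markers (mean log2 deviation 2.64). Het vehicle females 2 (1.57) and 4 (0.36) were also among the 10 highest in them. With the mean of the deep layer markers as a covariate, added after seeing the data, 2 members were called higher (Mal and Mobp) where 10% of all genes were called, and the median difference was 0.13, and the part of the other markers in the result was not tested.

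In Het males fluoxetine gave no called member by limma, edgeR or DESeq2, although 22.7% of all genes were called, and 2 members had an unadjusted p under 0.05, against 35.1% of all genes. The median difference was −0.23, with 5 members above 0. Without Het fluoxetine male 2, without the 10 libraries highest in striatal markers or in a fit of the 2 groups alone, 1 member was called lower. Ugt8a was at 731, 2612, 832, 1099 and 2036 with fluoxetine and 2159, 2567, 2964, 2479 and 1450.3 with vehicle (−0.81 ± 0.36, limma, adjusted p = 0.0971). Sox10 was at 540.2, 641, 602, 626 and 642, below every vehicle male (−0.35 ± 0.16, adjusted p = 0.105), and it was the only member whose groups did not overlap, where 7.22% of all genes had such groups. Lpar1, a receptor for lysophosphatidic acid, was at 456, 931, 394, 547 and 793 and 750.1, 859, 965, 874 and 642 (−0.45 ± 0.24, adjusted p = 0.172).

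The other factors in the Het fluoxetine males were at 419, 524, 361, 586 and 540.1 for Olig2, 1653, 1869, 1426, 2135 and 2143 for Olig1 and 285, 744, 780, 568 and 947 for Myrf. Mbp was at 13910, 56815, 47142, 42142 and 66688, Mobp at 3201, 14705, 15332, 12238 and 20494 and Mal at 2005, 5904, 6489.6, 4876 and 8289. Male 1 was the lowest of these 5 for Mbp, Mobp and Mal, and male 5 the highest. Mag was at 1194, 3218, 2477, 2339.9 and 3306, Mog at 337, 1429, 1435, 1026 and 1861, Cnp at 2908, 7052, 5569, 5259 and 7194, Opalin at 119, 354, 312, 194 and 294 and Enpp6 at 239.6, 444, 271, 320.1 and 532. The fluoxetine males overlapped the vehicle males for all of these genes but Sox10.

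Over both sexes of the Het mice 3 members were called higher, which is 9.38% of them where 16.9% of all genes were called higher, a share below the background. They were Mal (0.91 ± 0.26, limma, adjusted p = 0.00519), Mobp (0.85 ± 0.30, adjusted p = 0.0241) and Tspan2 (0.54 ± 0.21, adjusted p = 0.0448). Mal lay above the vehicle mean in 9 of 10 fluoxetine mice, Mobp in 9 of 10 and Tspan2 in 8 of 10. The median member had a difference of 0.23, and 42.6% of all genes had an unadjusted p under 0.05, among them 7 members. The count was 1 without Het vehicle female 3, Het vehicle female 4 or Het fluoxetine male 5, 6 without Het vehicle male 3, 7 without Het vehicle female 2, 8 without Het fluoxetine male 1, 1 in a fit of these groups alone and 0 without the 16 libraries highest in olfactory bulb markers. That last setting drops Het fluoxetine females 1, 2 and 3 and Het fluoxetine males 2 and 5. It also drops Het vehicle females 2 and 5 and Het vehicle males 1, 2 and 4. The part of the smaller number of libraries in this change was not tested.

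Whether the fluoxetine difference itself depended on sex or genotype was tested by interactions. In Het mice the female minus male interaction had a median of 1.06 over the members, with 0 called by limma, edgeR or DESeq2 and 25 at an unadjusted p under 0.05 (0.0112% and 12.2% of all genes), the smallest p being that of Ermn (1.71 ± 0.54, adjusted p = 0.212). The Het minus WT interaction over both sexes had a median of 0.58, with 0 called by limma and edgeR, 1 by DESeq2 and 15 at an unadjusted p under 0.05 (1.7% of all genes by limma, and 21.1% unadjusted). Its smallest adjusted p was that of Mal (1.29 ± 0.37, adjusted p = 0.0511), followed by Tspan2 (0.96 ± 0.30, 0.0668) and Mobp (1.24 ± 0.42, 0.0859). When 1 of the 40 libraries was left out this count ran from 0 to 7, with 5 without Het vehicle female 2 and 7 without Het fluoxetine male 1. The 4 remaining interactions, of lithium with genotype and of a drug with sex in the other groups, had 0 members called by limma, edgeR or DESeq2, 0% of all genes called, and at most 1 member at an unadjusted p under 0.05. The calls in Het females were thus not shown to differ from Het males. The interaction with genotype averaged both sexes, so the calls in Het females were not tested against WT females.

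limma, edgeR and DESeq2 called no member with lithium in either genotype or sex or over both sexes. In WT mice the median difference was −0.13 in males, −0.27 in females and −0.19 over both, with 0 members at an unadjusted p under 0.05 in each, while 0.0786%, 0.118% and 2.97% of all genes were called and 9.09%, 11.3% and 17.7% had such a p. In Het mice it was −0.11 in males (0 at an unadjusted p under 0.05), 0.33 in females (2) and 0.07 over both (1), while 2%, 0.629% and 9.14% of all genes were called and 19.6%, 13.8% and 25.1% had such a p. In Het females the differences ran from −0.38 for Enpp6 to 0.81 for Fa2h. With the deep layer markers as a covariate, 11 members were called lower in WT mice over both sexes, where 5.18% of all genes were called, and 2 in WT females, where 0.505% were.

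The WT lithium groups overlapped their vehicle groups for the genes given here. Mbp was at 37482, 62412, 61149.6, 40778 and 55476 in males and 42562, 42925, 30937, 65787 and 58517 in females, Mobp at 9557, 20452, 16643, 10435 and 14868 and 10696, 12644, 8681, 15713 and 16084. Mal was at 4427, 9933, 6258, 4150.4 and 5872 and 4719.9, 4499, 3511, 5659.8 and 6027, and Cnp at 4945, 9052, 7416, 5119 and 6073 and 5184, 5331, 4156, 7327 and 7465. Male 2 was the highest of these 10 libraries for Mobp, Mal and Cnp. Mag was at 2338, 3869, 3328, 2216 and 2544 and 2283, 2473, 1646, 3422 and 3467, and Mog at 906, 1935, 1333, 918 and 1496 and 1172, 1179, 759, 1623 and 1568. Opalin was at 226, 541, 303, 189 and 214 and 252, 211, 151, 312 and 306, and Enpp6 at 321, 514, 559, 412 and 443 and 409, 368, 427, 568 and 510.4. The lowest WT lithium female for Mag, Mog and Opalin was female 3. Olig1 was at 1762, 2016, 2311, 1826 and 1868 and 1563, 1811, 1771, 2053 and 2108, and Olig2 at 452, 509.9, 574, 485 and 484 and 421, 475, 419, 519 and 507. Sox10 was at 700.4, 746, 735, 611 and 728 and 580.1, 579, 659, 763 and 684, and Myrf at 643, 769.8, 803, 572 and 751 and 526, 517, 456, 875 and 725. Sox10 in females had the smallest p of the WT lithium comparisons (−0.32 ± 0.16, limma, unadjusted p = 0.0501, adjusted p = 0.443), ahead of Gjc3 (−0.42 ± 0.24, adjusted p = 0.513).

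The Het lithium females were spread widely. Mbp was at 43779, 76486, 55661, 51608 and 36919.6 in males and 52282, 13257, 26664, 76357 and 72653 in females, Mobp at 10717, 20642, 14139, 13655 and 10098 and 14735, 3370.2, 8539, 22077 and 20472. Mal was at 4537, 8496, 5945, 5216 and 3754 and 5949, 1819, 2965, 8765 and 7161, and Cnp at 5594, 8951, 6885, 5135 and 3584 and 6619.5, 2272, 4379, 10407 and 7303. Female 2 was the lowest and female 4 the highest for each of these, and Mbp differed 5.76-fold, Mag 6.33-fold and Enpp6 6.28-fold between the extreme females of this group. Mag was at 2911, 4245, 3256, 2223 and 1525 and 3012, 771, 1700.1, 4878 and 3080.2, and Mog at 1128, 1771, 1584, 1172 and 721 and 1408, 403, 794, 2254 and 1694. Opalin was at 244, 479.6, 287, 172 and 139.7 and 363, 89.5, 182, 444 and 348, and Enpp6 at 359, 542, 408, 378 and 235 and 358, 105, 258, 662 and 364. Female 2 was again the lowest for all 4. Olig1 was at 1675, 2206, 1889, 1782 and 1553 and 1747, 1505, 1634, 2547 and 2042, and Olig2 at 434, 542, 493, 498 and 416 and 457, 341, 520.2, 627 and 552. Sox10 was at 667, 803, 828, 688 and 533 and 721, 405, 538, 873 and 872, and Myrf at 608, 885, 802, 616 and 439 and 720.1, 228, 459, 1162 and 927. In Het females Olig2 differed by 0.29 ± 0.13 (limma, adjusted p = 0.318) and Fa2h by 0.81 ± 0.39 (adjusted p = 0.344), and over both sexes Mal by 0.54 ± 0.26 (adjusted p = 0.186).

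Het and WT mice given the same drug had no member called between them by limma, edgeR or DESeq2. Under fluoxetine 0 members in males, 4 in females and 1 over both sexes had an unadjusted p under 0.05, the smallest p being that of Mal in females (0.87 ± 0.37, limma, adjusted p = 0.34). Without Het fluoxetine male 1, 1 member was called higher over both sexes. Under lithium there were 0, 1 and 1, in each case Enpp6 (−0.60 ± 0.27 in females, adjusted p = 0.946). Of all genes 1.18%, 0.0393% and 7.33% were called under fluoxetine and 16.7%, 11.9% and 24.9% had an unadjusted p under 0.05. Under lithium the shares were 0.00562%, 0.0168% and 0.0393% called and 3.16%, 4.89% and 6.46% unadjusted. Between the sexes over all groups no member was called by any of the 3 tools and 0 had an unadjusted p under 0.05. The smallest p was that of Tmem125 (−0.10 ± 0.11, limma, unadjusted p = 0.403, adjusted p = 1), where 0.14% of all genes were called.

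Because the members moved together from library to library, each was also compared at a given level of 38 other oligodendrocyte genes, such as the deacetylase Sirt2 and the adhesion gene Nfasc. The mean log2 level of those genes entered the same limma fit as a covariate, an analysis added after seeing the data. A difference in this fit is one between mice at an equal mean level of the other oligodendrocyte genes, some of which were themselves called with fluoxetine. In vehicle mice no member was called by this fit (0.0393% of all genes in males, 0.0112% in females and 0.0449% over both), and the median difference in females was −0.01 in place of −0.74.

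At equal levels of the other genes, some compact myelin and sheath genes were called higher with fluoxetine in Het mice. The calls in each sex alone were less stable than those over both, as given below. Over both sexes 11 members (34.4%) were called higher and 1 (3.12%) lower, where 18.2% and 17.1% of all genes were. They were Mal (0.82, limma, adjusted p = 2.55e-07), Mobp (0.74, adjusted p = 5.26e-06), Mog (0.54), Tspan2 (0.46), Mbp (0.43), Cldn11 (0.42), Tmem125 (0.37), Cnp (0.29), Gjc3 (0.25), Ermn (0.24) and Olig2 (0.18), and Sox10 was lower by 0.15 (−0.15). Mal, Mobp, Mog, Tspan2, Cldn11 and Cnp kept their call in all 30 alternatives of this fit. In males 9 members were called higher, where 10.8% of all genes were, with Mal at 0.84, Mobp at 0.66, Tspan2 at 0.53 and Mog at 0.48. In females 9 were, where 6.55% of all genes were, with Mobp at 0.82, Mal at 0.80, Mog at 0.59 and Mbp at 0.49. Without the covariate 27 of the 32 members had lower means in Het males, and 0 were called. The covariate genes were not all steady over both Het sexes. Sox8 (−0.52), Prr5l (−0.49), Elovl7 (−0.30) and Car2 (−0.21) were called lower. Anln (0.68), Apod (0.60), Ndrg1 (0.43) and Sirt2 (0.30) were called higher. The part of these changes in the calls of this fit was not tested. Markers of other cells differed between the same groups. Without the covariate and over both sexes, 6 of 10 endothelial and mural markers (Tek −0.45, Rgs5 −0.52), 5 of 10 microglia markers (P2ry12 −0.55) and 2 of 10 astrocyte markers (Aqp4 −0.55, Gfap −0.48) were called lower, and 3 of 10 neuron markers (Snap25 0.28, Rbfox3 0.17, Syt1 0.14) higher. In the males the endothelial and mural markers summed to 11749 to 13833 with vehicle and 8264 to 13198 with fluoxetine. With their mean as a second covariate 8 members were called higher over both sexes and 0 lower, and the part of the other markers was not tested.

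The relative level is a gene's log2 value minus the mean log2 value of the 38 genes. It subtracts that mean in full, whereas the fit estimates how much of it to remove. Relative levels could thus still follow the 38 genes, which deviated by −0.66 in Het vehicle female 3 and 0.47 in WT vehicle female 2. Mal was at 2.32 and 4.16 in these 2 libraries, and Olig2 at 0.47 and −0.25. Gaps in relative level can therefore hold part of the library level that the fit removes. For Mal it was 3.04 ± 0.32 and 2.97 ± 0.59 (mean ± SD, n = 5) in Het vehicle males and females. Fluoxetine groups of Het mice were at 3.65 ± 0.49 and 4.09 ± 0.11, and lithium groups at 3.60 ± 0.20 and 3.44 ± 0.52. The WT groups were at 3.49 ± 0.15 and 3.51 ± 0.42 under vehicle, at 3.34 ± 0.46 and 3.44 ± 0.18 under fluoxetine, and at 3.68 ± 0.38 and 3.40 ± 0.19 under lithium. The 5 Het fluoxetine females lay between 3.93 and 4.20 and the 5 Het vehicle females between 2.32 and 3.66. The share of all genes with such a gap in relative level was not computed. The Het fluoxetine males ran from 2.87 to 4.07 and overlapped the vehicle males (2.72 to 3.57). The counts in single sexes were less stable than the count over both. In males it was 0 without the 16 libraries highest in olfactory bulb markers and 2 with the endothelial and mural markers as a second covariate, and in females it was 4 in each of these and 5 without Het vehicle female 4.

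**Figure D5:**
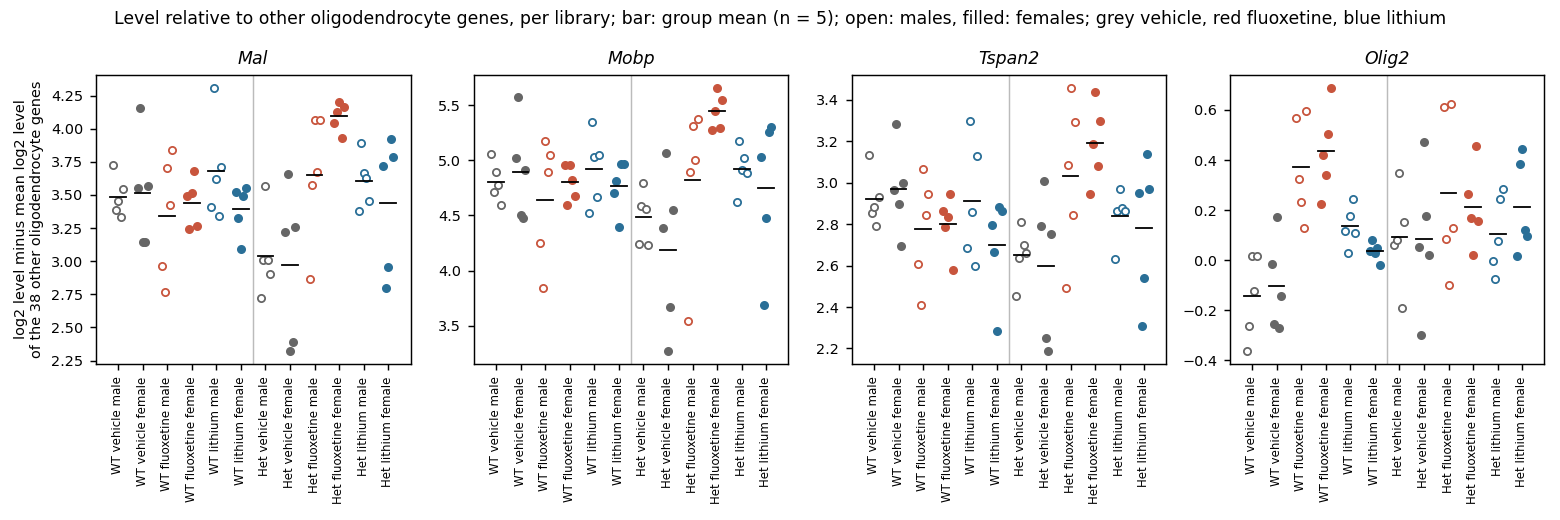
Relative level (log2 value minus the mean log2 value of 38 other oligodendrocyte genes, vertical axis) of Mal, Mobp, Tspan2 and Olig2 in the 12 groups, 1 point per library with a bar at the mean. Mal of the Het fluoxetine females lies between 3.93 and 4.20 and that of the Het vehicle females between 2.32 and 3.66. The share of all genes with such a gap was not computed, and relative levels can still follow the 38 genes. Olig2 of WT mice has a higher mean with fluoxetine than with vehicle in both sexes.

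In WT mice the same fit called 2 members higher with fluoxetine over both sexes, where 1.93% of all genes were, and both were transcription factors. Olig2 was higher by 0.41 (limma, adjusted p = 3.33e-05), in all 30 alternatives, and Olig1 by 0.23 (adjusted p = 0.00899). Olig2 was also called in each sex (0.40 in males, adjusted p = 0.0134, and 0.42 in females, adjusted p = 0.00728, where 0.208% and 0.343% of all genes were called higher). Its relative level was −0.14 ± 0.17 and −0.10 ± 0.18 (mean ± SD, n = 5) in vehicle males and females. Fluoxetine males and females were at 0.37 ± 0.21 and 0.44 ± 0.18. In normalized reads the Olig2 groups overlapped in each sex. Fluoxetine males 1 and 2 (479.5 and 423) lay within the range of the vehicle males (398 to 494). The Olig1 call was lost without the 16 libraries highest in olfactory bulb markers and without the 10 highest in striatal markers.

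With lithium in Het mice over both sexes the fit called 5 members higher (Mal 0.50, Mobp 0.47, Mog 0.35, Tmem125 0.32, Fa2h 0.26) where 6.31% of all genes were, and Enpp6 lower (−0.33, limma, adjusted p = 0.0102) where 4.9% were. The 5 higher calls were less firm, since 0 were left without the 16 libraries highest in olfactory bulb markers or with the endothelial and mural covariate, 2 without the striatal libraries, without Het vehicle male 1 or without Het vehicle female 3, and 9 without Het vehicle male 3. Het minus WT under fluoxetine over both sexes had Mal (0.41), Tspan2 (0.28) and Cldn11 (0.26) called higher, where 4% of all genes were. The interaction of genotype and fluoxetine had Mal (0.70 ± 0.17, limma, adjusted p = 0.0393) and Tspan2 (0.46 ± 0.12, adjusted p = 0.0457) called, where 0.505% of all genes were called higher, and the count ran from 0 to 5 when 1 of 40 libraries was left out.

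Genes of the earlier stages of the lineage were counted beside the members in Het mice with fluoxetine. Among the 12 precursor markers in Het females with fluoxetine 0 were called higher and 1 lower (the protocadherin gene Pcdh15, −0.52), with a median of −0.08, and of the 8 markers of committed precursors 0 were called, with a median of −0.11, where 15.1% of all genes were called. In Het males Gpr17, a receptor that marks committed precursors, was called lower (−0.55, limma, adjusted p = 0.00126), with the GTPase gene Rras2 and the transcription factor Sox4, 3 of 8. Of the 12 precursor markers there C1ql1 (−0.50), Pcdh15 (−0.38) and Ptprz1 (−0.25) were called lower and Pdgfra (0.14) higher, where 22.7% of all genes were called. The precursor lists were not tested against the members. Among the 38 other oligodendrocyte genes in Het females with fluoxetine 6 were called higher (among them Anln 1.33, Ndrg1 0.66, Zfp536 0.65, Sirt2 0.45 and Jam3 0.38), with a median of 0.38. Sox8, a relative of Sox10, was called lower in each sex of each genotype with fluoxetine (WT −0.67 in males and −0.36 in females, Het −0.61 and −0.44), where the Sox10 differences were −0.31, −0.36, −0.35 and 0.12. Markers of Schwann cells, the myelinating cells of peripheral nerves, were low throughout, with 6 genes summing to between 359 and 1030 normalized reads.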

How the data were processed

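Polyadenylated RNA of 60 prefrontal cortices was sequenced after a stranded library kit, per the labels' protocols. The build GRCm38 and the tools DESeq2 1.19.11, Salmon 0.11.2 and R 3.6.0 stand in the submitters' processing notes, and which step used which is not given in the sources used here. The deposited table held 18088 genes as a normalized signal. Each column divided by its step gave whole numbers for 100% of values (within 0.001), so what was deposited was whole reads over 1 size factor per library (0.818 to 1.072). Symbols and coordinates came from GENCODE M21, which named 18077 genes, and promoter sequences from RefSeq.

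Values were taken to log2(value + 1), which understates the change of low genes, and the 17807 genes that reached 10 in 5 or more libraries were tested. In R 4.3.3, limma 3.58.1 fitted 12 group means with an intensity trend over all 60 libraries (48 residual degrees of freedom), and 29 comparisons were contrasts of those means, adjusted by Benjamini-Hochberg within each and called under 0.05. The design had named limma for normalized values, as here, and edgeR for the case of raw counts. edgeR 4.0.16 and DESeq2 1.42.0 were run on the recovered whole reads as alternatives. Other alternatives were other scalings, pseudocount 10, other filters, array weights, a replicate block, a fit of the compared groups only, and leaving out each replicate in turn or the 16 libraries highest in olfactory bulb markers. Leaving out the 10 libraries highest in striatal markers and all covariate fits were added after seeing the data. Tested on simulated data made like fluoxetine against vehicle in Het females over 17807 genes, the fit called 77% of 100 genes changed by 0.5 (log2) and 94% of 100 changed by 1, with 8 false calls among 17525 unchanged genes. The changed genes were drawn at random from all but the low genes, and each gene was simulated independently. The members had a larger SD within groups (median 0.54 against 0.17) and moved together (median r of 0.83). These rates therefore do not give the power or the false calls for the members.

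The members, marker lists and tests were chosen with earlier results of these data known. Values in every library were set to be named for Mbp, Mobp, Mog, Mag, Cnp, Mal, Opalin, Enpp6, Olig1, Olig2, Sox10 and Myrf, for up to 8 called members per comparison by smallest adjusted p, and for up to 4 members with the smallest p where none was called. Genes of other lists were to be named where called or where they define the list, and Snap25, Sirt2 and Nfasc were named besides as examples. Some genes of these lists are not reported here by name. The lists not described further held markers of astrocytes, microglia, neurons and choroid plexus. Replicate numbers of the labels did not pair the samples, since same-numbered libraries correlated between −0.276 and 0.222 in their deviations and in 0 of 10 comparisons was every pair above 0.1. Depth was 24.05 to 31.65 M reads per library.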

Additional observations from a re-analysis of the deposited data

Results flagged for a closer look

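WT vehicle male 1 stood apart from the other 4 libraries of its group for 3 of the 12 genes examined by library. Cnp was at 9455 normalized reads there and at 6096 to 6879 in the others. Mal was at 7765 against 4686 to 5388, and Sox10 at 797.4 against 718.8 to 734.8. In each the gap to the nearest library exceeded Dixon's 95% critical value of 0.71 for 5 samples. Of 144 pairs of gene and group examined these 3 did so, and chance alone gives about 5% of pairs.

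At equal levels of the other oligodendrocyte genes, the fluoxetine difference of Het mice differed from that of WT mice in the interaction for Mal (0.698, limma, adjusted p = 0.0393) and Tspan2 (0.464, limma, adjusted p = 0.0457). Of 50 alternatives the Mal call was lost in 22 (18 of them the leaving out of 1 library) and the Tspan2 call in 28 (24). Both were lost under quantile normalization, without the bulb libraries, without the striatal libraries and with the endothelial and mural covariate. Without the oligodendrocyte covariate the limma fit of the report called neither, while DESeq2 called 1 member and limma with array weights 5.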

How the results depend on the processing

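Across 159 results no direction reversed for a called value, and Mal in Het females with fluoxetine stayed called under every alternative run. Quantile normalization lost 10 of 56 calls of named members, pseudocount 10 lost 0, and the replicate block kept 52 and lost 4. Depth was not varied, and the cause of each change was not tested. Of members called higher with fluoxetine in Het females (12), the fit of those groups only gave 4, leaving out the striatal libraries 5, the deep layer covariate 2, edgeR 6 and the replicate block 9, and the median difference was 0.129 with the deep layer and 0.116 with the oligodendrocyte covariate. Over both Het sexes (3 higher, 0 lower) the values were 1 with the groups only, 0 without the bulb libraries, 1 lower with the deep layer covariate, and 11 higher and 1 lower with the oligodendrocyte covariate. In Het males (0) there was 1 lower with the groups only and without the striatal libraries, 2 lower with the deep layer covariate and 9 higher with the oligodendrocyte covariate. In WT mice over both sexes (0 higher, 1 lower) the lower call was 0 under quantile normalization, the replicate block, the groups only, without the bulb libraries, the oligodendrocyte covariate, edgeR and DESeq2. A higher call was 1 under quantile normalization, array weights, the deep layer covariate and DESeq2 and 2 under the oligodendrocyte covariate, which gave 1 in each WT sex. With lithium the deep layer covariate gave 2 lower in WT females and 11 over both WT sexes, and the oligodendrocyte covariate 1 higher in Het males, 1 higher and 1 lower in Het females and 5 higher and 1 lower over both. That covariate gave 3 higher for Het against WT under fluoxetine over both sexes, a median of −0.00847 for Het against WT vehicle females, and 0.0245 for its interaction with sex. The interaction of fluoxetine with genotype (0) had 1 higher with a mean of at least 100 and with DESeq2, 5 with array weights, and 2 with the oligodendrocyte covariate, where its median was 0.0976. The median of the interaction of fluoxetine with sex in Het mice was 1.7 without the bulb libraries, 0.359 with the deep layer and 0.0024 with the oligodendrocyte covariate.

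Leaving out 1 library at a time gave 2 to 19 members higher with fluoxetine in Het females, 1 to 8 over both Het sexes, 0 to 1 lower in Het males, and 0 to 1 higher and 0 to 2 lower in WT mice over both sexes. It gave 0 to 1 for Het against WT under fluoxetine over both sexes and 0 to 7 for the interaction of fluoxetine with genotype.

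Within the oligodendrocyte covariate fit, leaving out 1 library gave 5 to 9 higher in Het females with fluoxetine (9), 0 to 1 lower in males, 1 to 2 lower over both sexes, 2 to 9 higher with lithium in Het mice over both sexes (5) and 0 to 5 in the interaction of fluoxetine with genotype (2). Without the bulb libraries it gave, with fluoxetine, 1 higher in WT mice over both sexes, 0 in Het males, 4 higher and 1 lower in Het females and 7 higher and 0 lower over both Het sexes, 0 with lithium in Het mice and 0 in the interaction. Without the striatal libraries the values were 1 in WT mice over both sexes, 4 in Het females, 0 lower over both Het sexes, 2 with lithium in Het mice and 0 in the interaction. With the endothelial and mural covariate they were 2 in Het males, 4 in Het females, 0 lower over both, 0 higher and 0 lower with lithium in Het mice, 2 higher with lithium in WT mice over both sexes, and 0 in the interaction. With the deep layer covariate besides, lithium gave 1 higher in WT and 3 in Het mice over both sexes. Array weights gave 2 and 8 there and 8 in the interaction, a mean of at least 100 gave 8 with lithium in Het mice and 4 in the interaction, and quantile normalization gave 2 lower with fluoxetine over both Het sexes and 0 in the interaction.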
